A study of Homo sapiens with 12 samples.

Results

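The genes described here are 47 interferon-stimulated genes, chosen by name for their known place in the interferon response, with no threshold on a measured value. Earlier results of these data were known when this list and the other gene lists were chosen. Their counts beside the shares over all genes are therefore descriptions. All 47 were found among the 45478 genes of the count table, DDX58 under its current symbol RIGI, and all 47 passed the filter on low counts. They were measured by mRNA sequencing in 4 groups of 3 libraries each. 786-O and A498 are established human cell lines from clear cell renal cell carcinoma (ccRCC), and the study describes the sunitinib-resistant 786-O and A498 cultures as derived from them by growth in rising doses of sunitinib, an inhibitor of receptor tyrosine kinases, until they grew stably at 4 µM and 2 µM respectively. They are called resistant 786-O and resistant A498, and the plain names stand for the parental lines. The name resistant A498 is that of the labels: by the genes that marked each parental line, these libraries resembled 786-O and not A498, and the culture may derive from 786-O. Selection lasted 4 months or over 20 passages in medium that held sunitinib throughout, every library carries the treatment label none, and each resistant group is a single named culture. The sample titles also hold codes with veh, and whether a vehicle was added is not stated. The sources do not say whether the 3 libraries of a group came from separate cultures, so p-values measure only the spread between libraries. The batch label is unique to each group, and batch and group cannot be told apart.

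Interferons are secreted proteins that cells release when they detect foreign or misplaced nucleic acid. Binding to their receptors activates the kinases JAK1 and TYK2, which phosphorylate STAT proteins. STAT2 and IRF9 belong to a complex called ISGF3 that binds the interferon-stimulated response element in the promoters of its target genes. The products of those genes sense viral RNA, block its translation, cut it, hinder the entry and release of virions, or attach the small protein ISG15 to other proteins. Cultured tumour cells can express some of them without added interferon.

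RefSeq promoter windows of 300 bases, from 250 before to 50 after a transcription start in GRCh38.p14, were given for 38 of the 47 genes. The windows were searched on both strands for the core of the interferon-stimulated response element, taken as GAAA, a pair of any bases, and GAAA. At least 1 window of 25 of the 38 genes held it (65.8%), against 4.38% of the 27305 genes with a window. The shorter spacing GAAANGAAA, added after the first matches had been seen, was held by 14 of the 38 (36.8%, against 3.87% of all genes), and 6 of these 14, RIGI, OAS1, IFI16, IFI35, XAF1 and CMPK2, lacked the first motif. TTCNNNGAA, the gamma-activated sequence, was held by 11 of the 38 (28.9%, against 9.38% of all genes), and any overlap between motifs was not removed. No window was given for IRF7, DHX58, MX2, IFIT2, OAS2, OASL, IFITM2, USP18 and TRIM22.

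The 120 bases before the start are shown for 8 genes. Of 19 genes with the core wholly within those bases, the 7 with the largest rises in resistant 786-O were taken. OAS1 was added for GAAANGAAA. Genes with large rises but no such match were thus left out: CMPK2 held no core, and that of RSAD2 ended 135 bases before the start. Each stretch is printed 5′ to 3′ on the strand of its gene, and capitals mark that core or its reverse complement, except in OAS1, where they mark GAAANGAAA. The stretches lie at chr11:313920-314039 (plus strand) for IFITM1, chr1:27672193-27672312 (minus strand) for IFI6, chr13:42992242-42992361 (minus strand) for EPSTI1, chr14:94110616-94110735 (plus strand) for IFI27, chr1:78620328-78620447 (plus strand) for IFI44L, chr15:88638896-88639015 (plus strand) for ISG20, chr1:1013377-1013496 (plus strand) for ISG15 and chr12:112906842-112906961 (plus strand) for OAS1.
IFITM1: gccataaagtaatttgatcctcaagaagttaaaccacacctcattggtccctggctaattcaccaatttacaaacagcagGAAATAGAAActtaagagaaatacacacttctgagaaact
IFI6: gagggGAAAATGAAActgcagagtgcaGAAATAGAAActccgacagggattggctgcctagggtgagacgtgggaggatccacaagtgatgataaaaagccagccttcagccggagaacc
EPSTI1: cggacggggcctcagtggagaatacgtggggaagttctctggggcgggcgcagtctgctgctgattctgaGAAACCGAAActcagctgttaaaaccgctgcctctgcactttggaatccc
IFI27: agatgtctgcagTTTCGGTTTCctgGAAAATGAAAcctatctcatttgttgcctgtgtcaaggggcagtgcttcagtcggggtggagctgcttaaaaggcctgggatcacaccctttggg
IFI44L: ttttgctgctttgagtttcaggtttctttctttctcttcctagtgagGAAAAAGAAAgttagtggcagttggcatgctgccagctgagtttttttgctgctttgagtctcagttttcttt
ISG20: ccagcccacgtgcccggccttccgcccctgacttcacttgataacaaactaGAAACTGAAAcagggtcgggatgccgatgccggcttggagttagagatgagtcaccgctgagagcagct
ISG15: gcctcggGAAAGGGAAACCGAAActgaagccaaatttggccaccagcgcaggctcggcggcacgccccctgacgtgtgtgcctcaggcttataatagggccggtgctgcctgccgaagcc
OAS1: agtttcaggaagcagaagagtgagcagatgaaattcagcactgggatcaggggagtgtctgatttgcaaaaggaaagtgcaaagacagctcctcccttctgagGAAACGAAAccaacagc
In IFI6, IFI27 and ISG15 the stretch held 2 matches, which overlap in ISG15, and in the others 1. The match nearest the start ended 8 bases before it in OAS1, 30 in IFITM1 and 40 in EPSTI1, and 97 bases before it in ISG15. The median log2 fold change in resistant 786-O against 786-O was 2.22 over the 25 genes with the core and 2.11 over the 13 without it. In resistant A498 against A498 these medians were 1.21 and 0.56, and in 786-O against A498 they were -1.38 and -1.60, all given as descriptions with no test.

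Library totals ranged from 40845091 to 47972092 counts in 786-O and resistant 786-O and from 20042519 to 34951585 in A498 and resistant A498. Levels are given as CPM, the counts of a gene relative to the normalized size of its library. Of 8 markers of kidney and ccRCC cells, 6 reached 1 CPM in every library, while CA9 was at most 1.56 CPM and NDUFA4L2 at most 0.860 CPM. All 7 T cell markers were under 1 CPM in every library (summed level 0 to 0.612 CPM), as were 5 of 6 monocyte and macrophage markers (summed 0.596 to 2.35 CPM). In bulk libraries, fewer cells of a type and less RNA per cell cannot be told apart. The libraries labelled resistant A498 stood apart from their labelled parent: 62 genes at 10 CPM or more in A498 and with no more than 3 counts in every 786-O library had a median of 0.362% of their A498 level in them, and 26 genes with the opposite pattern had a median of 79.9% of their 786-O level. In resistant 786-O the same medians were 0.238% and 93.9%. A value of resistant A498 against A498 is therefore not shown to be a change with resistance, and counts and medians over the 47 genes are given against A498 and against 786-O. For most single genes only the fold change against A498 is given, beside the levels in all 4 groups. The comparisons of resistant 786-O with 786-O and of 786-O with A498 take only the estimate of spread from these libraries, and with only the groups compared fitted the first still had 47 genes higher, while the second had 3 genes higher and 44 lower in place of 2 and 43. Over the 47 genes, the resistant 786-O replicate 2 library also stood apart from the other resistant 786-O libraries, as described with the listed genes it touches most.

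Summed over the 47 genes, expression was 2083, 2035 and 2077 CPM in 786-O, 7374, 9632 and 7598 CPM in resistant 786-O, 5188, 5262 and 4888 CPM in A498, and 10530.2, 10856 and 10349.9 CPM in resistant A498. The lowest resistant 786-O library thus lay above the highest A498 library, and each resistant culture above its labelled parent. For 44 of the 47 genes the group mean was lowest in 786-O, and for 36 it was highest in resistant A498. The order 786-O, A498, resistant 786-O, resistant A498, from low to high, held for 30 genes. Shares over all genes were not computed for these counts of 44, 36 and 30.

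**Figure D1:**
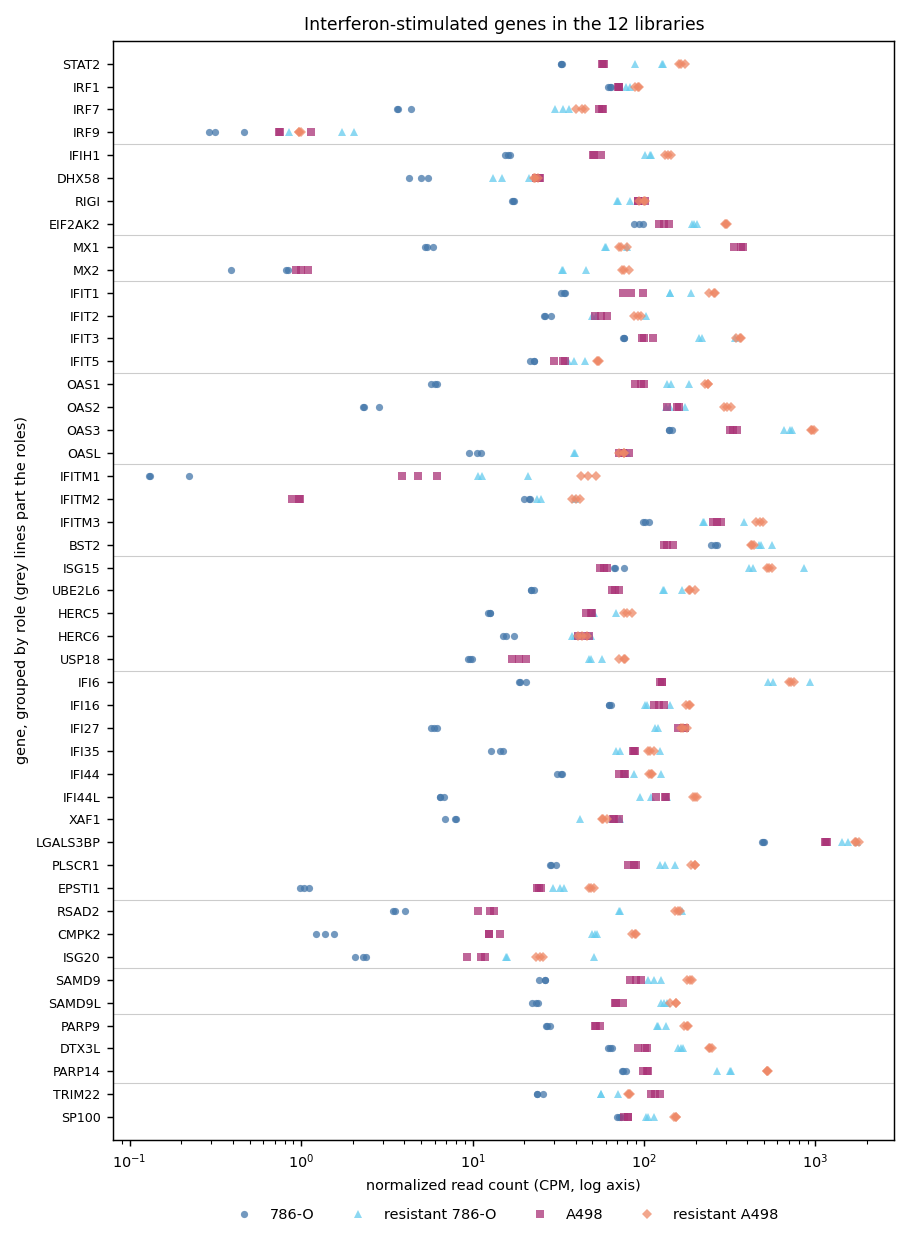
Normalized read count in CPM (log axis) of each of the 47 genes in the 12 libraries, 1 point per library, with 786-O as dark blue circles, resistant 786-O as light blue triangles, A498 as purple squares and resistant A498 as orange diamonds. The 786-O points lie at the left for 44 genes, while BST2, ISG15 and IFITM2 are lowest in A498; levels are comparable within a gene, not between genes, because CPM takes no account of gene length.

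Compared to 786-O, resistant 786-O presented higher levels of every gene on the list. edgeR's quasi-likelihood test called 47 of 47 higher and 0 lower at a Benjamini-Hochberg adjusted p of 0.05, where 35.0% of the 19929 genes tested were called higher and 33.5% lower, and 41 of the 47 rose by a log2 fold change of at least 1, against 16.2% of all genes. The resistant 786-O libraries lay above the 786-O libraries without overlap for all 47, which 34.5% of all genes did. The median log2 fold change was 2.22 (4.65-fold), against 0.03 over all genes tested, and it ranged from 0.30 for IRF1 to 6.42 for IFITM1. More than 10-fold rises were seen for 12 genes: MX1, MX2, OAS1, OAS2, IFITM1, IFI6, IFI27, IFI44L, EPSTI1, RSAD2, CMPK2 and ISG20. No share over all genes was computed for the 10-fold limit, here or in the other comparisons.

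Compared to A498, the libraries labelled resistant A498 presented a mixed pattern. edgeR called 36 genes higher (36.3% of all genes) and 3 lower (36.4% of all genes): MX1, IRF7 and TRIM22. The other 8, IRF9, DHX58, RIGI, OASL, HERC6, IFI27, IFI35 and XAF1, did not pass the test. Of the 36, 26 rose by a log2 fold change of at least 1 (14.3% of all genes), and MX1 alone fell by as much (16.5% of all genes). The libraries did not overlap for 37 genes that were higher (39.4% of all genes) and 4 that were lower (39.1%). The median log2 fold change was 1.04 (2.05-fold), and MX2, IFITM2 and RSAD2 rose more than 10-fold. All 47 genes were called higher in resistant 786-O. The 36 called higher in resistant A498 thus necessarily shared that direction, and the 3 called lower had the opposite one, which is not a separate result. Compared to 786-O, the same libraries presented higher levels of all 47 genes and lower levels of 0 (31.6% and 32.1% of all genes were called), with 44 higher by a log2 fold change of at least 1 (13.7% of all genes) and no overlap for any of the 47 (36.2% of all genes). The median was 2.75 and the range 0.53 to 8.14. The comparison of resistant A498 with 786-O shares the 786-O libraries with that of resistant 786-O with 786-O, so their likeness is not a result. By role, the median log2 fold change in resistant A498 against 786-O was 1.90 for the regulators, 2.38 for the RNA sensors, 5.28 for the MX pair, 2.00 for the IFIT genes, 4.06 for the OAS genes, 1.57 for the IFITM genes and BST2, 2.94 for the ISG15 system and 2.95 for the IFI genes and related small proteins. It was 5.42 for RSAD2, CMPK2 and ISG20, 2.76 for the SAMD9 pair, 2.68 for PARP9, DTX3L and PARP14, and 1.42 for TRIM22 and SP100.

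The change in resistant A498 against A498 was lower than that in resistant 786-O against 786-O for 33 genes and higher for 4, IFITM2, BST2, PARP14 and SP100, by the test of the difference itself, where 34.4% and 33.9% of all genes were called. By its arithmetic this difference is also resistant A498 against resistant 786-O plus 786-O against A498, so the parental gap enters it. The medians of these parts over the 47 genes were 0.48 and -1.56. The counts of 33 and 4 are thus not a result separate from the parental gap. With the GC and length trend removed, SP100 was no longer called (0.0002) and PARP14 turned (-0.05). Of the 37, 28 were lower by at least 1 on the log2 scale (21.3% of all genes) and IFITM2 higher by as much (13.8%). The other 10 genes did not pass that test: STAT2, IRF1, EIF2AK2, MX2, IFIT2, IFIT3, IFIT5, ISG15, IFI16 and DTX3L. Each of them was called under at least 1 alternative, IRF1, MX2, IFIT3 and ISG15 as higher and the rest as lower. STAT2 (-0.34) and IFI16 (-0.35) were called with DESeq2, and IFIT2 (-0.68) with scaling by library size alone. EIF2AK2 (-0.41) was called with the GC and length trend removed. A missing call there does not show that the changes were alike.

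**Figure D2:**
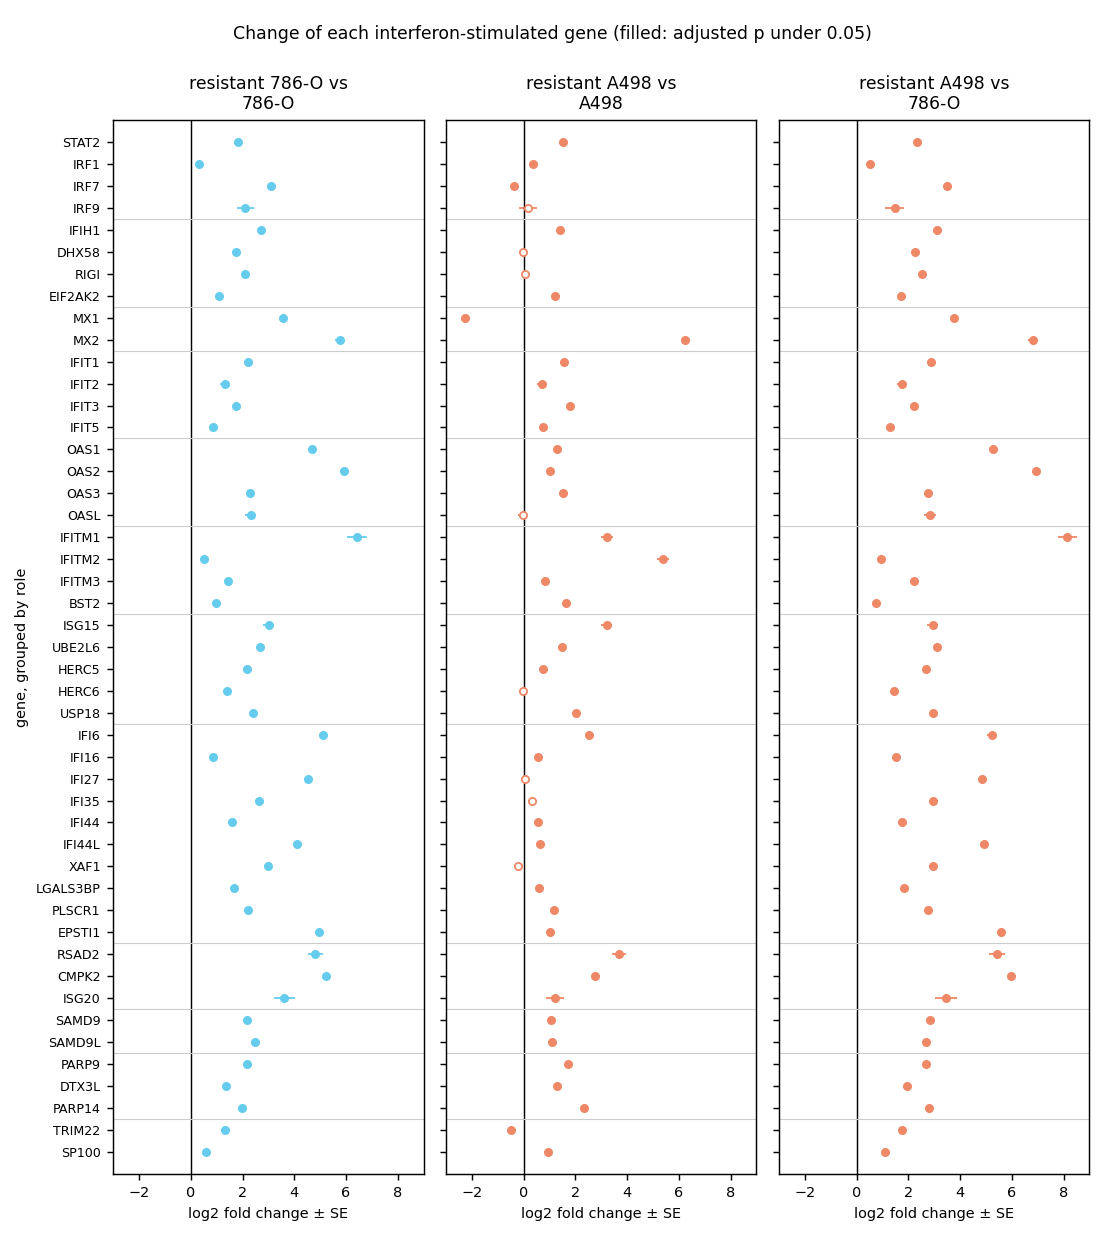
Log2 fold change ± SE of each of the 47 genes in 3 comparisons (3 libraries a group), resistant 786-O with 786-O, resistant A498 with A498, and resistant A498 with 786-O, with filled points for an adjusted p under 0.05. All points of the left and right panels lie above 0 and are filled, and in the middle panel MX1, IRF7 and TRIM22 lie below 0 and filled, with 8 open points.

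The parental lines differed before any selection. In 786-O, 43 of the 47 genes were lower than in A498 (36.1% of all genes were called lower), 32 of them by a log2 fold change of at least 1 (19.8% of all genes). IFITM2 and BST2 were called higher in 786-O (38.2% of all genes were), IFITM2 alone by a log2 fold change of at least 1 (12.1% of all genes), and MX2 and ISG15 did not pass the test, though both did with only these groups fitted (-0.61 and 0.23). The libraries did not overlap for 44 genes that were lower (38.5% of all genes) and 3 that were higher (41.7%). The median log2 fold change of 786-O against A498 was -1.56, against 0.04 over all genes, with a lowest value of -6.02 for MX1. IRF7, MX1, OAS1, OAS2, IFITM1, IFI27, IFI44L and EPSTI1 were more than 10-fold lower in 786-O. This comparison shares A498 with that of resistant A498 with A498 and 786-O with that of resistant 786-O with 786-O.

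**Figure D3:**
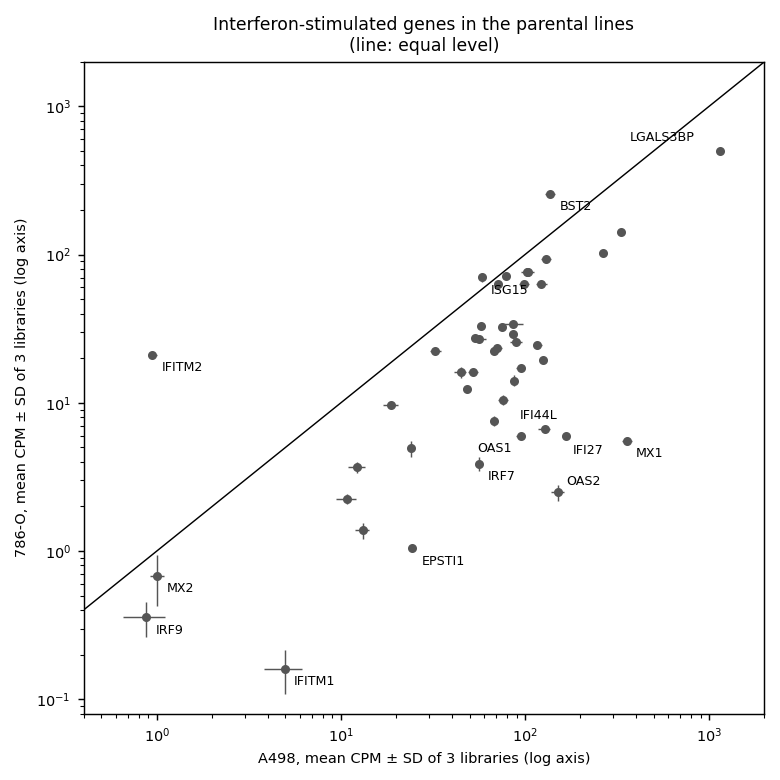
Mean CPM ± SD (3 libraries) of the 47 genes in 786-O (vertical, log axis) against A498 (horizontal, log axis), with the line of equal level. Points below the line are lower in 786-O: 44 genes lie below it, and IFITM2, BST2 and ISG15 lie above it.

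Among the regulators, STAT2, IRF1, IRF7 and IRF9 all rose in resistant 786-O. STAT2, the subunit of ISGF3 that activates transcription, was at 33.0, 32.7 and 32.8 CPM in 786-O, 129.6, 89.0 and 128 CPM in resistant 786-O, 57.9, 58.4 and 56.5 CPM in A498, and 159.5, 173 and 163 CPM in resistant A498. All resistant 786-O libraries lay above all 786-O libraries, with replicate 2 the lowest of them, and both resistant cultures exceeded both parental lines. The log2 fold change was 1.82 ± 0.11 in resistant 786-O and 1.52 ± 0.10 in resistant A498 against A498. IRF7, the transcription factor that amplifies the interferon response, was at 4.36, 3.62 and 3.68 CPM in 786-O, 30.2, 36.3 and 33.6 CPM in resistant 786-O, 54.5, 57.7 and 56.9 CPM in A498, and 40.4, 45.5 and 43.8 CPM in resistant A498. It was lowest in 786-O and highest in A498, with no overlap between any of the 4 groups. It rose by 3.10 ± 0.09 on the log2 scale in resistant 786-O (edgeR adjusted p = 6.56e-13) and changed by -0.39 ± 0.07 in resistant A498 against A498 (edgeR adjusted p = 0.000249), a difference of -3.49 ± 0.12 between the changes. With the trend of fold change on GC content and gene length removed, the value in resistant A498 against A498 was 0.06. Against 786-O, IRF7 was higher in resistant A498 by 3.47 ± 0.09.
IRF1, a transcription factor induced early by interferon gamma, ranged over 61.7 to 64.1 CPM in 786-O, 71.7 to 82.5 CPM in resistant 786-O, 70.6 to 71.7 CPM in A498 and 88.3 to 93.0 CPM in resistant A498 and rose by 0.30 ± 0.05 and 0.35 ± 0.05 on the log2 scale in resistant 786-O and resistant A498 against their labelled parents. Its exons share 22.9% of their bases with the antisense gene IRF1-AS1. IRF9, the DNA-binding subunit of ISGF3, had few counts, 403 over all 12 libraries. It was at 0.288 to 0.465 CPM in 786-O, 0.847 to 2.02 CPM in resistant 786-O, 0.743 to 1.14 CPM in A498 and 0.969 to 1.00 CPM in resistant A498. Of its exon bases, 23.9% belong also to a gene on the same strand, so its level is uncertain. What made its counts low was not tested. IRF9 was called higher in resistant 786-O (2.11 ± 0.32) and not called in resistant A498 against A498 (0.16 ± 0.34).

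The RNA sensors all rose in resistant 786-O, by 1.09 to 2.72 on the log2 scale, and were all lower in 786-O than in A498. IFIH1, the sensor MDA5 of long double-stranded RNA, was at 15.4, 16.6 and 16.2 CPM in 786-O, 109.6, 101 and 108 CPM in resistant 786-O, 50.9, 56.4 and 50.1 CPM in A498, and 137, 144 and 133 CPM in resistant A498. The groups did not overlap, in the order 786-O, A498, resistant 786-O, resistant A498. The log2 fold change was 2.72 ± 0.06 in resistant 786-O and 1.40 ± 0.06 in resistant A498 against A498. RIGI, the sensor of RNA with an uncapped 5′ triphosphate end, was at 17.3, 17.0 and 17.4 CPM in 786-O, 70.9, 82.9 and 69.7 CPM in resistant 786-O, 92.1, 102 and 91.6 CPM in A498, and 101, 100.5 and 93.1 CPM in resistant A498. In resistant 786-O it rose by 2.11 ± 0.07, whereas the resistant A498 and A498 libraries overlapped and did not pass the test (0.05 ± 0.07, edgeR adjusted p = 0.528). With the GC and length trend removed, RIGI was called lower in resistant A498 than in A498 (-0.26). DHX58, the sensor LGP2 that acts together with both, was at 5.52, 5.02 and 4.28 CPM in 786-O, 13.2, 21.4 and 14.8 CPM in resistant 786-O, 23.6, 24.6 and 24.3 CPM in A498, and 23.1, 24.1 and 22.8 CPM in resistant A498. The 786-O libraries were lowest, those of resistant 786-O came next, and the A498 and resistant A498 libraries overlapped above them, with a log2 fold change of 1.74 ± 0.15 in resistant 786-O and -0.05 ± 0.14 in resistant A498 against A498.
EIF2AK2, the kinase PKR that halts translation when it binds double-stranded RNA, was at 87.1, 93.0 and 98.1 CPM in 786-O, 204, 189.6 and 197 CPM in resistant 786-O, 129.9, 139 and 122 CPM in A498, and 301, 298 and 305 CPM in resistant A498. The groups did not overlap, and the rises of 1.09 ± 0.06 in resistant 786-O and 1.21 ± 0.06 in resistant A498 against A498 did not pass the test of their difference (edgeR adjusted p = 0.174). With the GC and length trend removed the difference was called, at -0.41.

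MX1 and MX2, neighbouring GTPases on chromosome 21 (chr21:41361999-41409393 for MX2 and chr21:41420020-41470071 for MX1, GRCh38) that trap viral nucleocapsids, stood at opposite ends in A498, where MX1 was at its highest and MX2 near its lowest. MX1 was at 5.92, 5.25 and 5.43 CPM in 786-O, 60.1, 79.2 and 58.9 CPM in resistant 786-O, 369, 376 and 333 CPM in A498, and 73.1, 79.1 and 71.4 CPM in resistant A498. The A498 libraries stood above every other group, the 786-O libraries below every other group, and those of resistant 786-O and resistant A498 overlapped. MX1 thus rose in resistant 786-O by 3.58 ± 0.11 on the log2 scale (edgeR adjusted p = 1.82e-12). It was lower in resistant A498 than in A498, with a log2 fold change of -2.27 ± 0.10 (edgeR adjusted p = 1.36e-11), and higher there than in 786-O (3.75 ± 0.11). The difference between the changes against the labelled parents, -5.85 ± 0.15, was the lowest of the 47. MX2 was at 0.841, 0.388 and 0.821 CPM in 786-O, 33.7, 46.0 and 33.4 CPM in resistant 786-O, 1.10, 0.929 and 0.993 CPM in A498, and 76.4, 81.7 and 74.8 CPM in resistant A498. Both parental lines were near 1 CPM or under it, with 786-O below A498 in every library, and both resistant cultures were at 33.4 CPM or more. The log2 fold change was 5.77 ± 0.18 in resistant 786-O (edgeR adjusted p = 1.62e-12) and 6.25 ± 0.18 in resistant A498 against A498 (edgeR adjusted p = 1.66e-13). The parental lines did not pass the test for MX2 (-0.56 ± 0.32, edgeR adjusted p = 0.121).

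The IFIT genes, which lie close together between 89283694 and 89421605 on chromosome 10 (GRCh38) and encode proteins that bind viral RNA and block its translation, rose in both resistant cultures against the labelled parents. IFIT1 was at 34.4, 32.7 and 34.3 CPM in 786-O, 142, 188 and 141 CPM in resistant 786-O, 84.4, 98.5 and 74.9 CPM in A498, and 255, 261 and 238 CPM in resistant A498. IFIT2 was at 26.2, 26.6 and 28.6 CPM in 786-O, 49.7, 102 and 52.2 CPM in resistant 786-O, 56.1, 61.2 and 51.5 CPM in A498, and 92.7, 95.6 and 87.8 CPM in resistant A498. IFIT3 was at 76.6, 76.0 and 75.7 CPM in 786-O, 218, 339 and 211 CPM in resistant 786-O, 99.7, 113 and 97.6 CPM in A498, and 365, 366 and 344 CPM in resistant A498. For IFIT1 and IFIT3 all 4 groups were apart, while for IFIT2 the resistant 786-O libraries overlapped those of A498 and resistant A498, with replicate 2 the highest of them. A gene on the same strand shares 12.1% of the exon bases of IFIT2. The log2 fold changes in resistant 786-O were 2.22 ± 0.11, 1.32 ± 0.20 and 1.75 ± 0.13 in that order, and in resistant A498 against A498 they were 1.55 ± 0.11, 0.71 ± 0.20 and 1.79 ± 0.14. IFIT5 was at 21.5 to 22.9 CPM in 786-O, 35.8 to 45.2 CPM in resistant 786-O, 30.0 to 34.4 CPM in A498 and 53.5 to 54.7 CPM in resistant A498, with log2 fold changes of 0.84 ± 0.08 in resistant 786-O and 0.72 ± 0.08 in resistant A498 against A498. The difference between the changes passed the test for IFIT1 (-0.67 ± 0.15) among these 4. IFIT2 did not pass it (-0.61 ± 0.28, edgeR adjusted p = 0.0633) but did with scaling by library size alone (-0.68). IFIT5 passed it with the GC and length trend removed (-0.83), and IFIT3 without resistant 786-O replicate 2 (0.31).

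The OAS genes encode synthetases of oligoadenylates that activate RNase L, which then cuts RNA, except OASL, which lacks that activity. OAS1, OAS3 and OAS2 lie next to each other between 112905856 and 113011723 on chromosome 12 (GRCh38), and they differed widely in their parental levels. OAS1 was at 5.73, 6.05 and 6.21 CPM in 786-O, 136, 183 and 144 CPM in resistant 786-O, 96.4, 99.6 and 89.2 CPM in A498, and 235, 237 and 228 CPM in resistant A498. OAS2 was at 2.84, 2.33 and 2.31 CPM in 786-O, 135, 175 and 142 CPM in resistant 786-O, 155, 159.5 and 137 CPM in A498, and 305, 324 and 291 CPM in resistant A498. OAS3 was at 139, 141 and 145 CPM in 786-O, 654, 706 and 731 CPM in resistant 786-O, 328, 349 and 319 CPM in A498, and 949, 977 and 940.2 CPM in resistant A498. The 786-O libraries were below all others for each of the 3 genes and the resistant A498 libraries above all others, while the resistant 786-O and A498 libraries overlapped for OAS2. In resistant 786-O the log2 fold change was 4.68 ± 0.11 for OAS1, 5.92 ± 0.12 for OAS2 and 2.30 ± 0.05 for OAS3, and the log2 fold changes of 786-O against A498 were -3.98 ± 0.11, -5.92 ± 0.12 and -1.23 ± 0.05. In resistant A498 against A498 the same genes rose by 1.30 ± 0.09, 1.03 ± 0.09 and 1.52 ± 0.05, a narrower range. OASL was at 11.2, 9.59 and 10.7 CPM in 786-O, 38.8, 79.0 and 39.5 CPM in resistant 786-O, 75.8, 81.3 and 71.6 CPM in A498, and 76.0, 76.5 and 71.6 CPM in resistant A498. The libraries of A498, resistant A498 and resistant 786-O overlapped (-0.03 ± 0.19 in resistant A498 against A498), and in resistant 786-O it rose by 2.32 ± 0.21, with replicate 2 above the other resistant 786-O libraries.

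The IFITM genes encode membrane proteins that hinder the entry of enveloped viruses, and BST2 encodes tetherin, which holds budding virions at the cell surface. IFITM1 presented the largest fitted rise of the 47 genes in resistant 786-O. It was at 0.131, 0.129 and 0.222 CPM in 786-O, 10.8, 21.1 and 11.3 CPM in resistant 786-O, 6.22, 4.83 and 3.90 CPM in A498, and 43.1, 52.2 and 47.1 CPM in resistant A498, and in 786-O this rested on 5 to 10 counts a library. No groups overlapped. Its log2 fold change was 6.42 ± 0.39 in resistant 786-O (edgeR adjusted p = 1.82e-09), 3.23 ± 0.23 in resistant A498 against A498 and 8.14 ± 0.36 in resistant A498 against 786-O. IFITM2, its neighbour on chromosome 11 (chr11:303655-309397 and chr11:310041-315272, GRCh38), was at 21.4, 19.9 and 21.5 CPM in 786-O, 23.8, 39.7 and 25.0 CPM in resistant 786-O, 0.984, 0.976 and 0.882 CPM in A498, and 37.8, 42.1 and 40.0 CPM in resistant A498. It was under 1 CPM in each A498 library and at 19.9 CPM or more in each other library, and the resistant 786-O and resistant A498 libraries overlapped. IFITM2 was higher in 786-O than in A498 by 4.46 ± 0.23 on the log2 scale, rose in resistant A498 against A498 by 5.39 ± 0.22 and differed from 786-O in resistant A498 by 0.93 ± 0.14. Its small rise in resistant 786-O (0.49 ± 0.14, edgeR adjusted p = 0.0063) did not pass the test with the GC and length trend removed (0.31). IFITM3 was at 107, 98.5 and 102 CPM in 786-O, 219, 382 and 223 CPM in resistant 786-O, 279.8, 266 and 253 CPM in A498, and 447, 493 and 476 CPM in resistant A498. It rose by 1.43 ± 0.15 in resistant 786-O and 0.83 ± 0.15 in resistant A498 against A498, and 14.2% of its exon bases overlap a gene on the other strand. BST2 ranged over 247 to 265 CPM in 786-O, 468 to 559 CPM in resistant 786-O, 130.3 to 147 CPM in A498 and 422 to 441 CPM in resistant A498. It was the other gene called higher in 786-O than in A498 (0.90 ± 0.06) and rose by 0.96 ± 0.06 in resistant 786-O and 1.64 ± 0.07 in resistant A498 against A498. Since IFITM1, IFITM2 and IFITM3 are close in sequence, reads may have been split among them, and their levels are uncertain to that extent.

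The ISG15 system attaches ISG15, a protein related to ubiquitin, to target proteins, and all 5 of its listed members rose in resistant 786-O. ISG15 itself was at 76.3, 67.0 and 67.6 CPM in 786-O, 411, 859 and 429.9 CPM in resistant 786-O, 58.5, 61.0 and 55.2 CPM in A498, and 538, 560.1 and 522 CPM in resistant A498. All 786-O libraries lay above all A498 libraries, both resistant cultures lay above both parental lines, and the resistant 786-O and resistant A498 libraries overlapped, with resistant 786-O replicate 2 the highest of all. The log2 fold change was 3.01 ± 0.21 in resistant 786-O (edgeR adjusted p = 9.29e-09) and 3.21 ± 0.22 in resistant A498 against A498 (edgeR adjusted p = 3.01e-09), and the difference between the changes was not called (0.20 ± 0.28). That difference was called with the GC and length trend removed (0.73) and without resistant 786-O replicate 2 (0.64). The parental lines did not pass the test (0.27 ± 0.21, edgeR adjusted p = 0.243).
UBE2L6, the conjugating enzyme for ISG15, was at 22.9, 22.1 and 21.8 CPM in 786-O, 130.1, 166 and 128 CPM in resistant 786-O, 71.3, 67.6 and 64.7 CPM in A498, and 185, 198 and 184 CPM in resistant A498. HERC5, the main ligase for ISG15 in human cells, was at 12.6, 12.6 and 12.2 CPM in 786-O, 51.2, 69.0 and 50.1 CPM in resistant 786-O, 49.4, 49.6 and 45.6 CPM in A498, and 85.4, 79.3 and 76.5 CPM in resistant A498. Both were lowest in 786-O and highest in resistant A498, and rose in resistant 786-O by 2.67 ± 0.09 and 2.18 ± 0.10. In resistant A498 against A498 the values were 1.48 ± 0.08 and 0.74 ± 0.10. USP18, the protease that removes ISG15 and also restrains signalling at the interferon receptor, was at 9.39, 9.95 and 9.62 CPM in 786-O, 47.6, 56.5 and 49.2 CPM in resistant 786-O, 16.9, 20.5 and 18.6 CPM in A498, and 76.9, 77.2 and 71.1 CPM in resistant A498. It rose by 2.40 ± 0.08 in resistant 786-O and 2.01 ± 0.08 in resistant A498 against A498, with all 4 groups apart. HERC6, a relative of HERC5 next to it on chromosome 4, was at 15.0, 17.6 and 15.6 CPM in 786-O, 38.0, 48.8 and 39.7 CPM in resistant 786-O, 45.3, 47.9 and 41.2 CPM in A498, and 43.7, 46.2 and 41.0 CPM in resistant A498. It rose in resistant 786-O (1.39 ± 0.09), while the libraries of A498, resistant 786-O and resistant A498 overlapped, and it did not pass the test in resistant A498 against A498 (-0.04 ± 0.09).

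The IFI genes and related small proteins all rose in resistant 786-O, 10 of 10. IFI6, a membrane protein that restrains apoptosis and viral replication, was at 20.5, 18.9 and 18.8 CPM in 786-O, 531, 924 and 568 CPM in resistant 786-O, 127, 128 and 124 CPM in A498, and 701, 747 and 723 CPM in resistant A498. The 786-O libraries were lowest and the A498 libraries next, and those of resistant 786-O and resistant A498 overlapped above both. The log2 fold change was 5.12 ± 0.17 in resistant 786-O (edgeR adjusted p = 3.52e-12) and 2.52 ± 0.15 in resistant A498 against A498. LINC02574, on the same strand, shares 23.1% of the exon bases of IFI6, so its level is uncertain. IFI27, a membrane protein found at mitochondria and at the nuclear envelope, was at 5.97, 5.74 and 6.23 CPM in 786-O, 117, 173 and 121 CPM in resistant 786-O, 173, 168 and 159 CPM in A498, and 169, 179 and 164 CPM in resistant A498. The 786-O libraries lay below all others, and those of A498, resistant 786-O and resistant A498 overlapped. IFI27 rose by 4.51 ± 0.14 in resistant 786-O and did not pass the test in resistant A498 against A498 (0.03 ± 0.11, edgeR adjusted p = 0.789).
IFI44L and IFI44, neighbours on chromosome 1 (chr1:78619902-78646145 and chr1:78649796-78664078, GRCh38), encode related proteins induced in most interferon responses. IFI44L was at 6.84, 6.49 and 6.50 CPM in 786-O, 109, 136 and 94.9 CPM in resistant 786-O, 134, 133 and 117 CPM in A498, and 199, 203 and 193 CPM in resistant A498. IFI44 was at 31.2, 32.9 and 33.2 CPM in 786-O, 86.9, 126 and 77.2 CPM in resistant 786-O, 77.7, 76.5 and 71.5 CPM in A498, and 111, 110.3 and 107 CPM in resistant A498. Both were lowest in 786-O, and the resistant 786-O libraries overlapped those of A498 for both genes and those of resistant A498 for IFI44. The log2 fold changes of 786-O against A498 were -4.28 ± 0.12 and -1.21 ± 0.13, and the rise in resistant 786-O was 4.10 ± 0.12 and 1.57 ± 0.13. In resistant A498 against A498 both rose, by 0.63 ± 0.10 and 0.54 ± 0.12.
EPSTI1, first known from breast epithelium next to stroma, was at 1.10, 0.982 and 1.04 CPM in 786-O, 32.5, 34.1 and 29.6 CPM in resistant 786-O, 25.1, 24.4 and 23.8 CPM in A498, and 49.3, 51.3 and 48.1 CPM in resistant A498. It was near 1 CPM in 786-O alone, and rose by 4.94 ± 0.09 in resistant 786-O and 1.02 ± 0.06 in resistant A498 against A498. IFI35, a protein that binds NMI, was at 15.1, 12.8 and 14.5 CPM in 786-O, 68.5, 125 and 72.7 CPM in resistant 786-O, 86.7, 88.5 and 87.0 CPM in A498, and 109, 115 and 106 CPM in resistant A498. XAF1, an antagonist of the apoptosis inhibitor XIAP, was at 6.86, 8.01 and 7.87 CPM in 786-O, 72.3, 42.3 and 65.1 CPM in resistant 786-O, 67.0, 71.8 and 65.8 CPM in A498, and 56.7, 60.6 and 58.0 CPM in resistant A498. Both were lowest in 786-O and rose in resistant 786-O, by 2.65 ± 0.18 and 2.98 ± 0.15, with replicate 2 of resistant 786-O the highest of its group for IFI35 and the lowest for XAF1. Neither passed the test in resistant A498 against A498 (0.33 ± 0.16 and -0.22 ± 0.14), though both did with only these groups fitted (0.32 and -0.23), and 38.3% of XAF1's exon bases are shared with PRAL on the other strand.
LGALS3BP, a secreted glycoprotein that binds galectins, was at 504, 490.4 and 497 CPM in 786-O, 1433, 1759 and 1543 CPM in resistant 786-O, 1164, 1155 and 1135 CPM in A498, and 1734, 1792 and 1709.7 CPM in resistant A498. PLSCR1, a phospholipid scramblase, was at 30.8, 28.5 and 28.4 CPM in 786-O, 133, 152 and 124 CPM in resistant 786-O, 90.3, 87.6 and 81.1 CPM in A498, and 199, 198 and 189 CPM in resistant A498. Both were lowest in 786-O, and the rises were 1.67 ± 0.06 and 2.22 ± 0.07 in resistant 786-O and 0.60 ± 0.06 and 1.18 ± 0.07 in resistant A498 against A498. IFI16, a sensor of DNA, ranged over 62.2 to 64.5 CPM in 786-O, 102 to 142 CPM in resistant 786-O, 115 to 131 CPM in A498 and 176 to 185 CPM in resistant A498 and rose by 0.87 ± 0.10 and 0.56 ± 0.10.

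RSAD2 (viperin, which makes a chain-terminating nucleotide) and CMPK2 (a nucleotide kinase of mitochondria) lie head to head on opposite strands of chromosome 2 and share 351 exon bases (chr2:6865557-6898239 and chr2:6840570-6866635, GRCh38), and both rose steeply. RSAD2 was at 3.52, 3.44 and 4.04 CPM in 786-O, 72.6, 166 and 71.5 CPM in resistant 786-O, 10.7, 13.3 and 12.6 CPM in A498, and 163, 158 and 151 CPM in resistant A498. CMPK2 was at 1.55, 1.22 and 1.37 CPM in 786-O, 49.6, 51.8 and 53.1 CPM in resistant 786-O, 12.5, 14.4 and 12.5 CPM in A498, and 88.5, 89.7 and 84.9 CPM in resistant A498. Both resistant cultures were above both parental lines for each gene, and resistant 786-O replicate 2 stood out for RSAD2 and not for CMPK2. The log2 fold change of RSAD2 was 4.81 ± 0.30 in resistant 786-O (edgeR adjusted p = 2.35e-09) and 3.69 ± 0.27 in resistant A498 against A498, and that of CMPK2 was 5.22 ± 0.09 (edgeR adjusted p = 3.13e-15) and 2.75 ± 0.07. ISG20, an exonuclease that degrades single-stranded RNA, was at 2.39, 2.07 and 2.31 CPM in 786-O, 15.6, 51.4 and 15.9 CPM in resistant 786-O, 9.26, 11.8 and 11.2 CPM in A498, and 25.9, 24.8 and 23.6 CPM in resistant A498. The single resistant 786-O replicate 2 library lay above every other library; without it the log2 fold change in resistant 786-O was 2.80 in place of 3.61 ± 0.41. In resistant A498 against A498 it was 1.21 ± 0.36.

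SAMD9 and SAMD9L, adjacent on chromosome 7 (chr7:93099513-93118023 and chr7:93130056-93148385, GRCh38), encode related restriction factors of poxviruses that limit translation. SAMD9 was at 24.5, 26.3 and 26.5 CPM in 786-O, 114, 126 and 106 CPM in resistant 786-O, 90.2, 96.2 and 82.9 CPM in A498, and 185, 189 and 178 CPM in resistant A498. SAMD9L was at 23.5, 24.1 and 22.3 CPM in 786-O, 136, 132 and 126 CPM in resistant 786-O, 67.8, 75.5 and 69.1 CPM in A498, and 154, 154 and 141 CPM in resistant A498. For both genes 786-O was lowest, A498 next, then resistant 786-O and resistant A498, with no overlap of groups, and the log2 fold changes were 2.17 ± 0.07 and 2.50 ± 0.06 in resistant 786-O and 1.04 ± 0.07 and 1.08 ± 0.06 in resistant A498 against A498.

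PARP9 and DTX3L, a mono-ADP-ribosyltransferase and its partner ubiquitin ligase, lie head to head on chromosome 3, and PARP14 encodes a related enzyme nearby. PARP9 was at 28.4, 26.8 and 27.1 CPM in 786-O, 121, 134 and 118 CPM in resistant 786-O, 55.4, 52.0 and 52.3 CPM in A498, and 178, 181 and 171 CPM in resistant A498. DTX3L was at 61.8, 63.3 and 64.9 CPM in 786-O, 159, 169 and 165 CPM in resistant 786-O, 101, 104 and 91.6 CPM in A498, and 239, 249.8 and 242 CPM in resistant A498. PARP14 was at 75.5, 78.1 and 74.7 CPM in 786-O, 317, 268 and 324 CPM in resistant 786-O, 105, 105 and 99.3 CPM in A498, and 527, 520.2 and 519.7 CPM in resistant A498. The groups were in the order 786-O, A498, resistant 786-O, resistant A498 for all 3 genes, with no overlap. In resistant 786-O they rose by 2.18 ± 0.06, 1.37 ± 0.05 and 1.99 ± 0.06, and in resistant A498 against A498 by 1.73 ± 0.06, 1.30 ± 0.05 and 2.34 ± 0.06. The difference between the changes was called in opposite directions for PARP9 (-0.46 ± 0.08) and PARP14 (0.35 ± 0.09), the latter not with the GC and length trend removed (-0.05).

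TRIM22, a ubiquitin ligase with antiviral activity, was at 23.7, 23.7 and 25.7 CPM in 786-O, 56.2, 70.3 and 55.8 CPM in resistant 786-O, 124, 116 and 111 CPM in A498, and 82.9, 82.3 and 80.4 CPM in resistant A498. It was highest in A498, rose by 1.32 ± 0.08 in resistant 786-O (edgeR adjusted p = 2.09e-09) and changed by -0.51 ± 0.08 in resistant A498 against A498 (edgeR adjusted p = 2.51e-05). Against 786-O, TRIM22 was called higher in resistant A498. SP100, a component of nuclear bodies, ranged over 69.4 to 73.2 CPM in 786-O, 102 to 114 CPM in resistant 786-O, 76.2 to 80.8 CPM in A498 and 149 to 154 CPM in resistant A498 and rose by 0.59 ± 0.05 in resistant 786-O and 0.94 ± 0.05 in resistant A498 against A498.

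The resistant 786-O replicate 2 library had the highest level of its group for 37 of the 47 genes and the lowest for 7: STAT2, IRF1, IRF9, IFIH1, EIF2AK2, XAF1 and PARP14. Its ratio to the mean of the other resistant 786-O libraries had a median of 1.26 and ranged from 0.452 for IRF9 to 3.26 for ISG20. The median coefficient of variation over the 47 genes was 16.4% in resistant 786-O and 3.53% to 5.89% in the other groups. Without this library all 47 genes were still called higher in resistant 786-O. These counts, ratios and coefficients were computed over the 47 genes only, so the deviation is not shown to be particular to them. What sets the library apart was not tested.

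**Figure D4:**
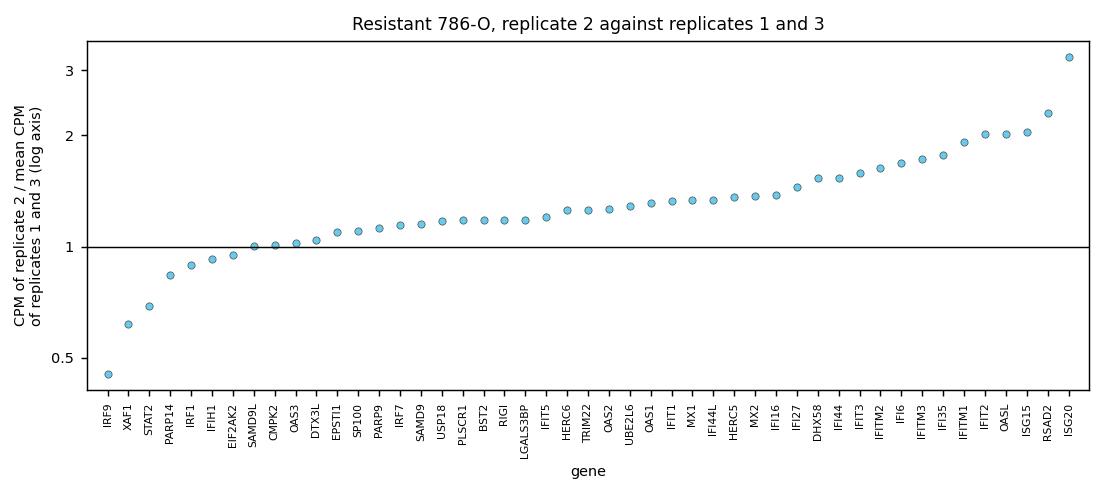
Ratio of the CPM in resistant 786-O replicate 2 to the mean CPM in resistant 786-O replicates 1 and 3 (log axis) for each of the 47 genes, ordered by ratio, with a line at equal level. The ratio ranges from 0.452 for IRF9 to 3.26 for ISG20.

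The resistant cultures were also compared with each other. edgeR called 35 genes higher in resistant A498 (23.0% of all genes were called higher) and 1, BST2, lower (23.0%). BST2 was not called without resistant A498 replicate 3 (-0.20) or with the GC and length trend removed, where its direction turned (0.01). The other 11 were not called, and the median log2 fold change was 0.48. MX2 (1.04), OAS2 (1.03) and IFITM1 (1.72) were the 3 that reached a log2 fold change of 1 (2.91% of all genes). The libraries of the 2 cultures overlapped for 15 of the 47 genes, 31 were higher without overlap (26.1% of all genes) and 1 lower (25.6%). Without resistant 786-O replicate 2 the calls became 44 higher and 3 lower.

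Genes upstream of the 47 were called in both directions. Of 15 interferon ligand genes found, 12 had no more than 3 counts in every library and 6 had no count at all. IFNB1, the type I interferon made by most cell types, had 0, 0 and 1 counts in 786-O, 10, 23 and 11 counts in resistant 786-O, 3, 5 and 1 counts in A498, and 3, 7 and 9 counts in resistant A498. The resistant 786-O libraries were all above the 786-O libraries, and edgeR called the rise (adjusted p = 0.000249), while resistant A498 against A498 was not called (adjusted p = 0.131); no fold is given, because 786-O was at the floor of 3 counts.
The receptor chains of type I interferon were lower in both resistant cultures than in their labelled parents. IFNAR1 was at 56.9, 59.2 and 61.9 CPM in 786-O, 46.4, 39.6 and 44.4 CPM in resistant 786-O, 64.8, 62.5 and 64.5 CPM in A498, and 52.8, 52.5 and 51.4 CPM in resistant A498, and IFNAR2 was at 14.8, 15.0 and 15.9 CPM in 786-O, 12.3, 10.5 and 11.9 CPM in resistant 786-O, 16.1, 16.8 and 16.6 CPM in A498, and 9.61, 9.57 and 10.0 CPM in resistant A498. Every library of a resistant culture lay below every library of its labelled parent for both chains, with log2 fold changes of -0.45 ± 0.06 and -0.40 ± 0.07 in resistant 786-O and -0.29 ± 0.06 and -0.76 ± 0.08 in resistant A498 against A498. Against 786-O, IFNAR1 was also called lower in resistant A498, but not with scaling by library size alone (-0.03) or without 786-O replicate 3 (-0.16). Without resistant A498 replicate 2 or 3 it was not called either. IFNLR1, the specific chain of the interferon lambda receptor, was at 6.39, 5.64 and 6.54 CPM in 786-O, 7.59, 9.59 and 7.32 CPM in resistant 786-O, 0.0868, 0 and 0 CPM in A498, and 6.59, 7.70 and 6.65 CPM in resistant A498. IFNLR1 was at the floor in A498, with 3, 0 and 0 counts, and present in every other library. Of the 6 receptor genes, 3 were called higher and 2 lower in resistant 786-O (35.0% and 33.5% of all genes), and 1 higher and 3 lower in resistant A498 against A498 (36.3% and 36.4% of all genes).
Of 9 genes of JAK-STAT signalling and its inhibitors, 3 were called higher and 3 lower in resistant 786-O, and 3 higher and 4 lower in resistant A498 against A498, shares near those over all genes (35.0% and 33.5%, and 36.3% and 36.4%). JAK1, a kinase bound to the receptors, was at 351, 356 and 359.7 CPM in 786-O, 259, 232 and 272 CPM in resistant 786-O, 350.4, 332 and 329 CPM in A498, and 240.2, 242 and 242 CPM in resistant A498. It was lower in both resistant cultures, by log2 fold changes of -0.48 ± 0.05 and -0.48 ± 0.05.
Of the 11 nucleic acid sensing genes tested, 6 were called higher and 5 lower in resistant 786-O (35.0% and 33.5% of all genes), and 4 higher and 5 lower in resistant A498 against A498 (36.3% and 36.4%). IRF5, a transcription factor of this pathway, rose in both (1.48 ± 0.07 and 2.06 ± 0.08), as did TRIM25, a ubiquitin ligase linked to RIGI signalling (1.37 ± 0.04 and 0.30 ± 0.04), and STING1, the adaptor for cytosolic DNA (1.39 ± 0.07 and 0.34 ± 0.07). IRF3, the transcription factor that induces IFNB1, was lower in both (-0.23 ± 0.05 and -0.48 ± 0.05), though in resistant 786-O it was not called with scaling by library size alone (-0.08).

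**Figure D5:**
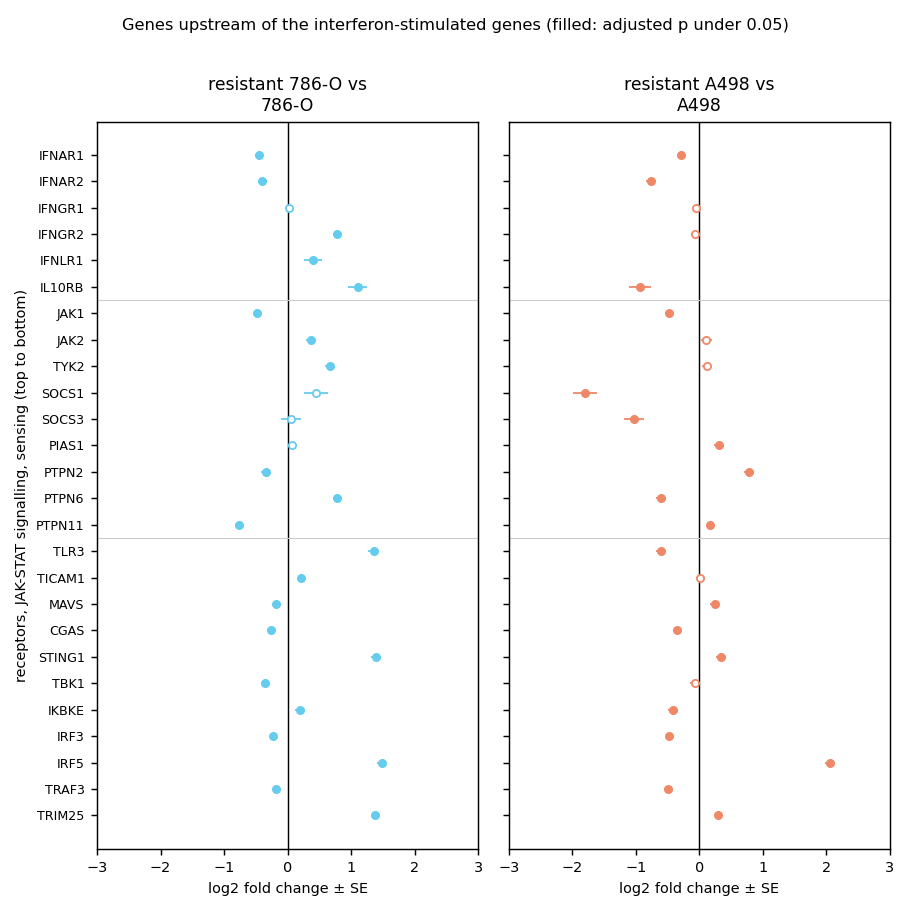
Log2 fold change ± SE (3 libraries a group) of the tested receptor, JAK-STAT and nucleic acid sensing genes in resistant 786-O against 786-O and resistant A498 against A498, with filled points for an adjusted p under 0.05. Points lie on both sides of 0 in each block; IFNLR1 has no point in the right panel, because A498 was at the floor.

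Beyond the list of 47, 26 of 27 other interferon-stimulated genes, also listed with earlier results of these data known, were called higher in resistant 786-O. Of them 0 were lower (35.0% of all genes were called higher and 33.5% lower), and their median log2 fold change was 1.03. In resistant A498 against A498, 20 were called higher and 5 lower (36.3% and 36.4% of all genes; median 0.79). Against 786-O 27 were higher in resistant A498 (31.6% of all genes), and 20 were lower in 786-O than in A498 (36.1%). CCL5, a chemokine that draws T cells, was at 1.26, 1.86 and 1.77 CPM in 786-O, 36.4, 88.2 and 37.9 CPM in resistant 786-O, 25.8, 27.1 and 27.5 CPM in A498, and 47.5, 46.9 and 44.3 CPM in resistant A498. It rose by 5.04 ± 0.33 in resistant 786-O and 0.79 ± 0.25 in resistant A498 against A498, with resistant 786-O replicate 2 the highest library. HELZ2, a helicase and nuclear co-activator, was at 52.7, 53.0 and 51.2 CPM in 786-O, 375, 413 and 450.0 CPM in resistant 786-O, 119, 136 and 129 CPM in A498, and 394, 436 and 439 CPM in resistant A498. The resistant 786-O and resistant A498 libraries overlapped and lay above both parental lines (2.98 ± 0.07 and 1.72 ± 0.07). TNFSF10, the death ligand TRAIL, was at 237, 224 and 233 CPM in 786-O, 310.0, 272 and 271 CPM in resistant 786-O, 22.7, 23.6 and 23.5 CPM in A498, and 372, 373 and 351 CPM in resistant A498. It was low in A498 alone, and changed by 0.30 ± 0.05 in resistant 786-O and 3.97 ± 0.06 in resistant A498 against A498. CXCL10, a chemokine, stayed under 5 CPM in all libraries, with log2 fold changes of 3.12 ± 0.21 in resistant 786-O and -0.43 ± 0.17 in resistant A498 against A498. The latter was not called with scaling by library size alone (-0.36) or with no filter (-0.39). Nor was it called without A498 replicate 2, resistant A498 replicate 1 or resistant A498 replicate 3. RTP4 rose in both resistant cultures (2.31 ± 0.18 and 3.37 ± 0.19). Of 11 tested genes known mainly as targets of interferon gamma, 8 were called higher and 1 lower in resistant 786-O (35.0% and 33.5% of all genes), and 8 higher and 2 lower in resistant A498 against A498 (36.3% and 36.4%). GBP4, a guanylate-binding GTPase, was at 1.63, 1.03 and 1.37 CPM in 786-O, 20.1, 21.8 and 20.2 CPM in resistant 786-O, 13.2, 16.0 and 12.7 CPM in A498, and 27.7, 28.2 and 26.0 CPM in resistant A498, and rose by 3.94 ± 0.13 and 0.97 ± 0.10.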

How the data were processed

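Poly(A) RNA of the 12 libraries had been sequenced from stranded mRNA libraries. The authors deposited raw gene counts, made with bcl2fastq 2.19.0, Trimmomatic 0.36.6, HISAT2 2.1.0 against GRCh38 and featureCounts 1.6.3, the versions as in the submitters' processing notes. The study's methods state a strand mode for the counting. Of 84 opposite-strand genes lying within the exons of a highly counted gene, however, 68 had at least 0.5 times its counts per base (median 1.91), so levels of genes with antisense overlaps are uncertain.

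Counts were tested with edgeR 4.0.16 (R 4.3.3) by the quasi-likelihood test in a single fit of the 4 group means, after filterByExpr and TMM normalization, and 19929 genes were adjusted by Benjamini-Hochberg at 0.05. This replaced the test of gene counts named in the study's methods, for which no scaling by library size is given in the sources used here. Standard errors are the log2 fold change over the square root of F, with a prior count of 0.125, and the floor was 3 counts. The difference of changes is resistant A498 against A498 minus resistant 786-O against 786-O. On simulated data for resistant 786-O against 786-O with 17626 genes, 166 of 200 genes changed 2-fold were recovered and 10 unchanged genes were called. With totals of 20042519 to 47972092 counts, genes with few counts were measured least precisely, and counting error is only part of the spread between libraries.

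Gene positions were taken from the GENCODE annotation of GRCh38, and promoter windows from RefSeq. Alternatives were library size alone, DESeq2 1.42.0, other filters, the replicate block, only the groups compared, a fold minimum, removal of GC and length trends, and leaving out each library. The members and lists were chosen with earlier results of these data known. Values in every library are given for members that reach a mean of 5 CPM in some group and are called with an absolute log2 fold change of at least 1 in resistant 786-O against 786-O or in 786-O against A498. The other members are given by range, and genes outside the list by counts per list and by examples chosen after their values were seen. A gene of the JAK-STAT list is not reported here.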

Additional observations from a re-analysis of the deposited data

Results flagged for a closer look

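Log2 fold changes of the libraries labelled resistant A498 against A498 differed from those of resistant 786-O against 786-O for 37 of the 47 genes by edgeR's test of the difference itself. Values are the first log2 fold change minus the second, each from 3 libraries a group. Among the regulators and RNA sensors it was -3.49 for IRF7, -1.95 for IRF9, -1.33 for IFIH1, -1.79 for DHX58 and -2.06 for RIGI. Among the MX, IFIT and OAS genes it was -5.85 for MX1, -0.67 for IFIT1, -3.39 for OAS1, -4.89 for OAS2, -0.78 for OAS3 and -2.35 for OASL. In the IFITM genes and BST2 it was -3.19 for IFITM1, 4.90 for IFITM2, -0.60 for IFITM3 and 0.68 for BST2. In the ISG15 system it was -1.19 for UBE2L6, -1.45 for HERC5, -1.43 for HERC6 and -0.39 for USP18. Among the IFI genes and related small proteins it was -2.60 for IFI6, -4.48 for IFI27, -2.32 for IFI35, -1.04 for IFI44, -3.47 for IFI44L, -3.20 for XAF1, -1.07 for LGALS3BP, -1.05 for PLSCR1 and -3.92 for EPSTI1. Among the remaining enzymes and restriction factors it was -1.11 for RSAD2, -2.47 for CMPK2, -2.40 for ISG20, -1.13 for SAMD9, -1.41 for SAMD9L, -0.46 for PARP9, 0.35 for PARP14, -1.83 for TRIM22 and 0.35 for SP100. The parental lines differed most, in either direction, for MX1 (-6.02) and OAS2 (-5.92) among these genes, and for IFITM2 the value was 4.46. The resistant A498 libraries lacked genes that marked A498 and held those that marked 786-O, so these values are not shown to be differences in the change with resistance. The gap between the parental lines enters each of them by its arithmetic. With the GC and length trend removed, the test was not passed for IFITM3 (-0.0393) and SP100 (0.0002), and PARP14 turned (-0.0501). IFITM3 did not pass it without A498 replicate 1 or without resistant A498 replicate 1 either (both -0.55).

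Outside the list of 47, the same difference was -0.26 for IRF3, 0.58 for IRF5, -1.05 for STING1, -1.07 for TRIM25 and -0.36 for IFNAR2. It was -4.25 for CCL5, -1.26 for HELZ2, 1.07 for RTP4, 3.67 for TNFSF10, -2.97 for GBP4 and -3.55 for CXCL10. With the GC and length trend removed IRF3 (0.33) and HELZ2 (0.079) turned, and with no filter IRF3 (-0.21) and IFNAR2 (-0.31) were not called. The fitted values for IFNB1 (-3.55) and IFNLR1 (7.06) depend on the prior count, because a parental line was at or near 0 counts, and give no bound.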

How the results depend on the processing

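The rise of the 47 genes in resistant 786-O depended little on the processing: 47 were called under every alternative except 46 with at least 10 counts required in every library, 46 with the GC and length trend removed, where IFITM2 was not called, and 41 with a log2 fold change of at least 1 also required. With that fold minimum, the genes lower in resistant A498 than in A498 went from 3 to 1, those higher in 786-O than in A498 from 2 to 1, those higher in resistant A498 than in resistant 786-O from 35 to 3, those lower there from 1 to 0, and those with a higher difference of changes from 4 to 1. The genes lower in resistant A498 than in resistant 786-O numbered 2 with no filter and 0 with the GC and length trend removed, and 0 to 3 with a library left out (3 without resistant 786-O replicate 2 and 0 without resistant A498 replicate 3). With a library left out, a higher difference of changes was called for 4 to 7 genes (7 without resistant 786-O replicate 2).

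With the GC and length trend removed the direction turned for IRF7 (0.061) and RIGI (-0.26) in resistant A498 against A498, IRF1 (0.065) in 786-O against A498, BST2 (0.011) and SAMD9L (-0.10) in resistant A498 against resistant 786-O, and EIF2AK2 (-0.41), PARP14 (-0.0501), IRF3 (0.33) and HELZ2 (0.079) in the difference of changes. Without resistant 786-O replicate 2, ISG15, ISG20 and CCL5 turned in resistant A498 against resistant 786-O and were called higher, though none was called with all libraries. With a library left out their values ran from -0.25 to 0.36, from -0.43 to 0.65 and from -0.44 to 0.32. The cause was not tested. Scaling by library size alone moved every log2 fold change by 0.14 in resistant 786-O against 786-O and by 0.15 in resistant A498 against 786-O. Fold minimum aside, the call of a member changed under at least 1 alternative for 1 gene in resistant 786-O against 786-O, 4 in resistant A498 against A498, 4 in 786-O against A498, 21 in resistant A498 against resistant 786-O and 13 in the difference of changes.

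The replicate numbers did not pair the libraries: deviations of libraries with the same number correlated between -0.227 and 0.239 over 10084 genes. With the replicate block, 47 genes were higher in resistant 786-O than in 786-O, against A498 36 rose and 3 fell in resistant A498, 2 were higher and 43 lower in 786-O than in A498, and 36 higher and 1 lower in resistant A498 than in resistant 786-O. IFIT2, in the last of these, was the only member whose call changed with the block.

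Genes with few counts, such as IRF9 and, in 786-O, IFITM1, were measured least precisely. IRF9 also shares exon bases with a gene on the same strand, and what made its counts low was not tested. Each resistant group is a single culture with a batch label of its own, and the resistant A498 libraries did not carry the genes that marked A498, so the values against A498 hold for these libraries only.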
